A study of Mus musculus with 4 samples.

Results

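The TCEAL and BEX genes examined here are 9 mouse genes of the X chromosome, Tceal1, Tceal3, Tceal5, Tceal6, Tceal7, Tceal8, Bex1, Bex2 and Bex4. They were picked with earlier results of this same comparison known, so their differences are described and carry no test. A member counted as measured where an array feature (a set of probes summarised as 1 value) was annotated to that gene alone. This held for 7 of the 9 genes, with 1 feature each, out of 19938 genes measured. Tceal3 and Tceal7 had no such feature. The study compared gene expression in differentiating leukemic and normal mouse erythroid cells on a single-colour Affymetrix whole-transcript array. One group was 2 cultures (A and B) of MEL cells, an erythroleukemia line, kept in serum and puromycin and exposed to 17b-estradiol for 48 hours. The other was 2 cultures (A and B) of ES-EP cells, normal erythroid progenitors grown out from embryonic stem cells. ES-EP cells were kept in Epogen (erythropoietin), IGF-1, dexamethasone and stem cell factor, then moved for 24 hours to Epogen, insulin and the steroid antagonist mifepristone. Cell source, medium, inducer and hours differed together between the groups, so their parts cannot be told apart. The labels do not say what the estradiol acts on in these MEL cells.

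TCEAL proteins are small nuclear proteins named for their likeness to transcription elongation factor A, also called SII, which helps stalled RNA polymerase II to resume. BEX proteins (brain expressed, X-linked) are small, largely unstructured adaptors of the same wider family, and are best known from neurons, where some bind the neurotrophin receptor p75. In mammals both groups lie in 1 neighbourhood of the X chromosome, beside the ARMCX and GPRASP genes, which encode armadillo repeat and receptor sorting proteins.

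The promoter sequences are shown first because they let the members that were bright and dim on the arrays be read side by side. The RefSeq promoter table (GRCm38.p6) has windows of 300 bases, from 250 bases before to 50 bases after an annotated start, and all 9 members were found in it. The Tceal8 stretch below lies at chrX:136172222-136172501 on the minus strand and runs from 250 bases before the start to 30 bases into the transcript, 280 bases in all. Capitals mark the words TGACG (found in cyclic AMP response elements) and CACGTGA (which holds the E-box CACGTG) where they read on the gene's own strand.
Tceal8: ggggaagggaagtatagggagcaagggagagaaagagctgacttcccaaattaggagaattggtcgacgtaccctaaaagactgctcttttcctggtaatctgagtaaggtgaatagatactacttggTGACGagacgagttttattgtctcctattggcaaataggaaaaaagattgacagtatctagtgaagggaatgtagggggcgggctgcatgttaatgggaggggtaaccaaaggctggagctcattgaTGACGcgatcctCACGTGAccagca
The same words in the other members are set beside it in a shorter stretch. They sit at chrX:136172222-136172264 (minus strand) for Tceal8, chrX:136138957-136139000 (plus) for Bex4, chrX:136215503-136215546 (minus) for Bex1 and chrX:136203886-136203929 (minus) for Tceal5. The others are at chrX:135210688-135210731 (minus) for Tceal6, chrX:136666348-136666391 (plus) for Tceal3, chrX:136707951-136707994 (plus) for Tceal1 and chrX:136223951-136223994 (plus) for Tceal7.
Tceal8: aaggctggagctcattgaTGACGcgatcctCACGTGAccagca
Bex4: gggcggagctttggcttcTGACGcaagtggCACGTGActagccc
Bex1: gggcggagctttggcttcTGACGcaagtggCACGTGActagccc
Tceal5: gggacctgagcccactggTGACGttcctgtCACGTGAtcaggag
Tceal6: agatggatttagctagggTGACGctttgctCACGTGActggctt
Tceal3: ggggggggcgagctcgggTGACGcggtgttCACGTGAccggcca
Tceal1: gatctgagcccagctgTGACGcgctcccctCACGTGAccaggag
Tceal7: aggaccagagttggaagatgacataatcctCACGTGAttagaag
The printed stretches of Bex4 and Bex1 hold the same letters, and their whole windows matched at 291 of 294 aligned bases (99.0%).

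Tceal8 was the 1 member with a large difference. Its feature (10606858) read 9.91 and 10.04 in MEL cultures A and B, and 4.04 and 3.98 in ES-EP cultures A and B, in log2 units of the deposited values. Both MEL cultures were bright and both ES-EP cultures dim, with no overlap. The group means were 9.98 ± 0.09 (SD, n = 2) and 4.01 ± 0.04 (SD, n = 2), which are the 90.8th and 13.4th percentiles of all features in each group. The log2 difference of the deposited values was 5.97 ± 0.09 (SE), or 62.5-fold. The ES-EP level lies within the range of the olfactory receptor genes used below as a scale of dim signal, so the size of this fold rests on that dim level and is not a measured ratio of RNA amounts. In RNA from whole cultures, fewer cells of a type and less RNA per cell cannot be told apart.

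Bex4, an adaptor reported to associate with tubulin, was bright in both kinds of cell. Its own feature (10358457) read 11.06 and 11.13 in MEL and 10.15 and 10.09 in ES-EP. Both MEL values were above both ES-EP values. The means were 11.09 ± 0.05 and 10.12 ± 0.04 (SD, n = 2 each), and the log2 difference was 0.97 ± 0.08 (SE), or 1.96-fold, just under the 2-fold used for a call. A second feature (10601850), annotated to Bex4 and Bex1 together, read 10.76 and 10.73 in MEL and 10.06 and 9.97 in ES-EP, a log2 difference of 0.73 ± 0.08 (SE). The shared feature was bright in the same way, while the feature of Bex1 alone was dim. The array's feature numbers mostly follow the genome. Of the 10 features numbered nearest to the Bex4 feature, 1 is annotated to the X chromosome and 8 to chromosome 1, whereas each of the other 6 members has 9 or 10 such neighbours on X. Of 790 X-linked features of 1 gene, 39 (4.94%) have fewer than 5 of 10 neighbours on X. The place of the Bex4 probes on the genome was not tested.

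The other 5 measured members were dim in both groups, with array values from 2.94 to 4.49. Bex1, which binds p75 in neurons, read 2.94 and 3.16 in MEL and 3.85 and 3.77 in ES-EP (feature 10606868), a log2 difference of -0.76 ± 0.10 (SE). Tceal5 read 3.88 and 3.51 against 4.32 and 4.49 (feature 10606864), a difference of -0.71 ± 0.13. These were the lowest differences of the family, and they lay closer to each other than the SE of either. Tceal6 read 4.12 and 3.84 against 4.28 and 4.33 (feature 10606789), a difference of -0.32 ± 0.11. Tceal1, the member first described as an SII-related protein, read 3.73 and 3.86 against 4.09 and 4.12 (feature 10601878), a difference of -0.31 ± 0.09. Bex2, whose human counterpart was reported to bind the erythroid cofactor LMO2, read 4.16 and 4.12 against 4.19 and 4.48 (feature 10606835), a difference of -0.19 ± 0.11. The differences of Tceal1 and Tceal6 lay closer to each other than the SE of either. A feature annotated jointly to Tceal3, Tceal5 and Tceal6 (10601874) read 4.78 and 4.42 in MEL and 4.68 and 4.63 in ES-EP, with overlapping groups and a difference of -0.05 ± 0.13.

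**Figure D1:**
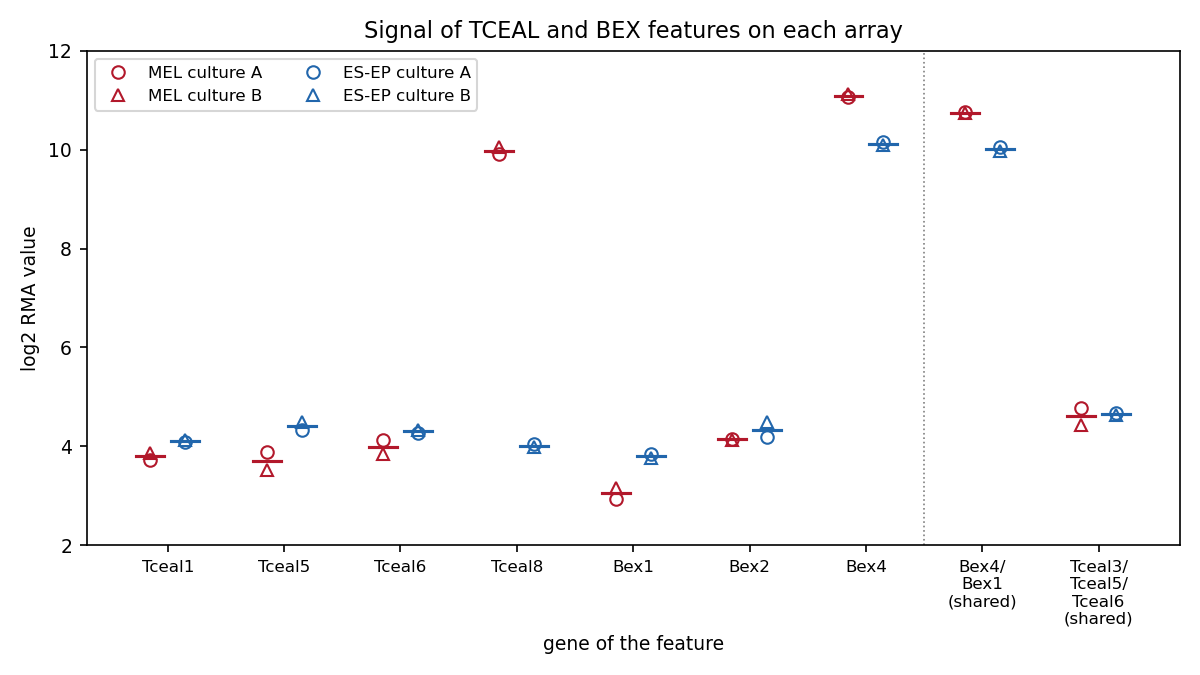
Deposited log2 RMA values (vertical axis) of the 7 member features and, right of the dotted line, the 2 features shared by several members, with open circles for cultures A, triangles for cultures B and bars for the means of 2 cultures. Tceal8 stands near 10 in MEL and near 4 in ES-EP, Bex4 is above 10 in all 4 arrays, and the other 5 members lie between 2.94 and 4.49.

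A scale for such dim signal was taken, after the values had been seen, from 1027 olfactory receptor genes, which blood cells are not known for. Their group means ran from 3.03 to 5.19 in MEL (5th to 95th percentile, median 3.73) and from 3.17 to 5.57 in ES-EP (median 3.95). The means of all 5 dim members lay within these ranges, with Bex1 in MEL (3.05) close to the lower end. The differences of the receptor genes ran from -0.74 to 0.21 (5th to 95th percentile), with a median of -0.22, so that 4 of the dim members lay inside and Bex1 at -0.76 just below. Whether the dim members' RNA was present at all was not tested.

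A gene was called where limma's adjusted p over all 28944 features was under 0.05 and the difference at least 2-fold. Of the 7 measured members 1, Tceal8, was called higher in MEL, where the background was 7.38% of all measured genes, and 0 were called lower, where it was 4.93%. Without the fold criterion 2 members were higher (Tceal8 and Bex4; background 21.8%) and 4 lower (Bex1, Tceal5, Tceal6 and Tceal1; background 36.9%). The number lower was 2 after quantile normalization, after centring on array medians and after cyclic loess. Nothing is read from these counts, because the members were chosen on this comparison. All 7 members had groups that did not overlap, as did 80.2% of all measured genes. The median difference of the members was -0.31, against -0.14 over all measured genes. The member differences ran from -0.76 to 5.97, with 2 higher and 5 lower by sign. The large difference of Tceal8 was not shared by the other measured members. The 5 lower were the dim members, and the receptor genes used as the dim scale also leaned lower as deposited, with a median of -0.22. That median was -0.15 after centring on array medians, -0.05 after quantile normalization and -0.04 after cyclic loess. After quantile normalization the dim members differed by -0.62 (Bex1), -0.51 (Tceal5), -0.11 (Tceal6), -0.11 (Tceal1) and 0.03 (Bex2). The 5 signs as deposited therefore do not show whether these members moved together.

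**Figure D2:**
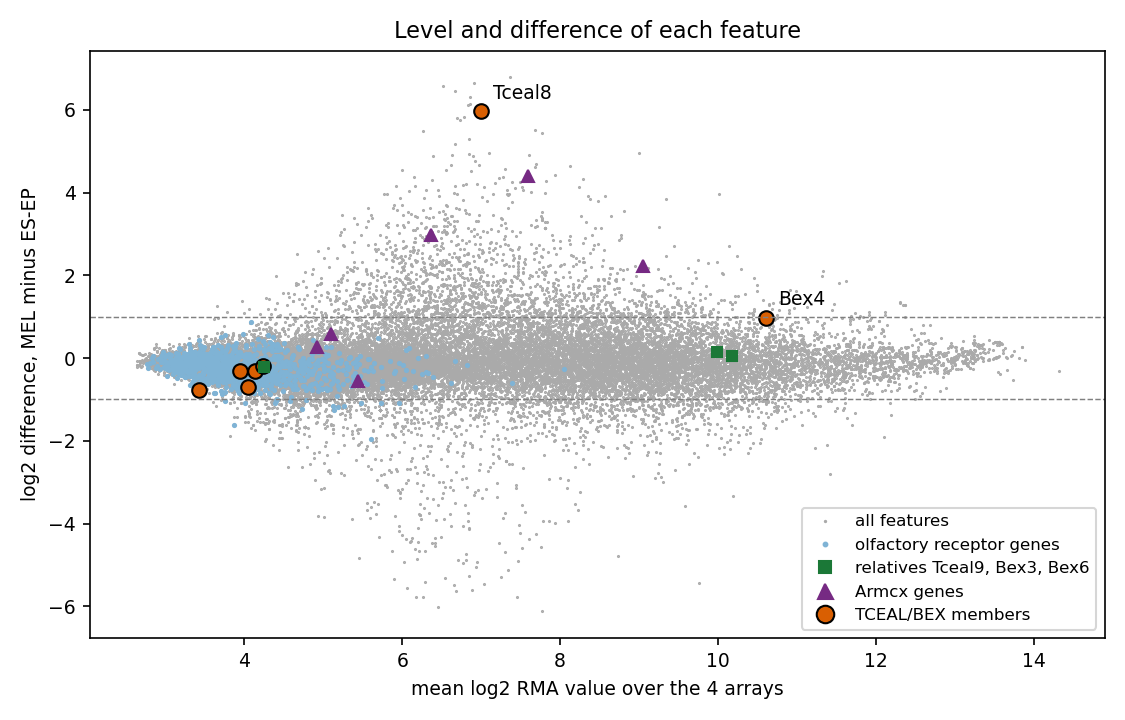
Mean log2 RMA value over the 4 arrays (horizontal axis) against the log2 difference, MEL minus ES-EP (vertical axis), for all 28944 features (grey), 1027 olfactory receptor genes (blue), the 7 members (orange), 3 relatives (green squares) and the Armcx genes (purple triangles), with dashed lines at 2-fold. Tceal8 stands alone among the members at 5.97, Bex4 lies just under the upper line, and the 5 other members lie among the receptor genes.

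The members lie in a stretch of the X chromosome whose other genes were taken by their place. Of those measured, Armcx2, Armcx5, Bhlhb9, Arxes1, Arxes2, Tceal9 and Bex3 are also on lists chosen with earlier results of these data known. In RefSeq order, from 10 genes before the first member to 10 genes after the last, the stretch holds 95 genes, of which 28 were measured, 21 of them not members. Of these 21, 2 were higher at 2-fold (background 7.38% of all measured genes) and 0 lower (4.93%). Armcx2, at the start of the stretch, read 9.72 and 9.86 in MEL and 5.48 and 5.30 in ES-EP, a log2 difference of 4.40 ± 0.10 (SE; limma, adjusted p = 1.38e-07). Zmat1, a zinc finger gene, read 5.55 and 6.07 against 3.78 and 3.70, a difference of 2.07 ± 0.16 (adjusted p = 4.2e-05). The ES-EP means of Armcx2 (5.39) and Zmat1 (3.74) lie within the range of the olfactory receptor genes there, so both differences are set against dim signal. The groups of both genes stood apart. Without the fold criterion 4 were higher (background 21.8%), the others being Armcx5 (0.59) and Morf4l2 (0.29). The 3 lower (background 36.9%) were Nxf3 (-0.27), Rab9b (-0.41) and the non-coding BC065397 (-0.68). These counts depended on the scaling, since quantile normalization gave 8 higher and 2 lower, cyclic loess 6 and 1, and centring on array medians 4 and 2. Nxf3 did not pass after quantile normalization (-0.07, adjusted p = 0.400), centring (-0.20, adjusted p = 0.197) or cyclic loess (-0.08, adjusted p = 0.411), and Rab9b not after cyclic loess (-0.22, adjusted p = 0.0548). Nxf3, Morf4l2 and Rab9b did not pass without ES-EP culture A (adjusted p = 0.0938, 0.128 and 0.0743). Nxf3 and Morf4l2 also did not without MEL culture B (0.0876 and 0.100), without ES-EP culture B (0.214 and 0.130) or with control features included (0.0585 and 0.0668). As deposited, the other 14 did not pass, and 12 of the 21 had both means under 5. The median difference of the 21 was -0.11. Of the 10 features numbered nearest to the Armcx5 feature, 0 are annotated to the X chromosome and 10 to chromosome 17. The place of the Armcx5 probes on the genome was not tested. With other unmeasured genes left out, the order along the chromosome around Tceal8 is Bex2, Nxf3, Bex4, Tceal8, Tceal5, Bex1, Tceal7, Tceal9 and Bex3, so that the nearest measured genes to Tceal8 are the bright Bex4 on one side and the dim Tceal5 on the other.

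**Figure D3:**
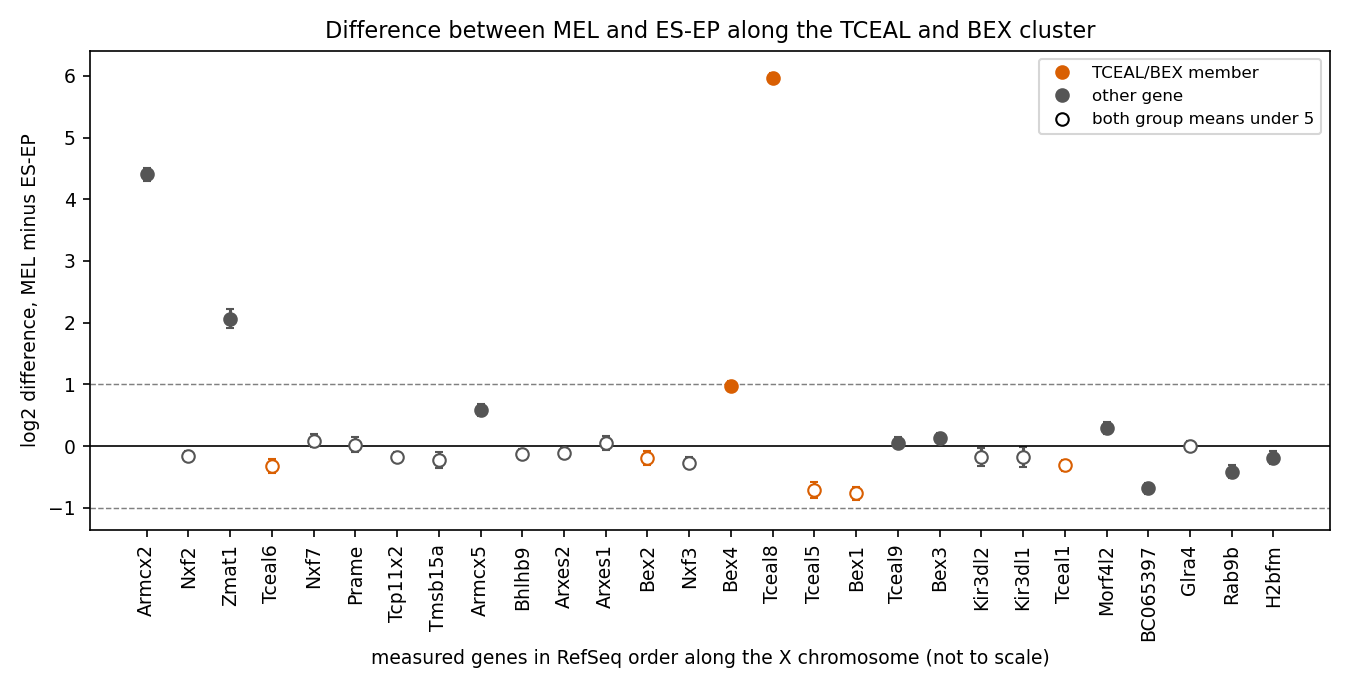
Log2 difference, MEL minus ES-EP, with its SE, of the 28 measured genes in RefSeq order along the stretch (not to scale), members in orange, other genes in grey, open symbols where both group means were under 5, dashed lines at 2-fold. The large positive differences are at Armcx2, Zmat1 and Tceal8, and the nearest measured genes to Tceal8 lie within the 2-fold lines.

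Family genes outside the member list were few. They were listed with earlier results of these data known, so their adjusted p-values are descriptive. Tceal9, another SII-like protein gene, read 10.15 and 10.27 in MEL and 10.15 and 10.15 in ES-EP, a difference of 0.06 ± 0.09 (adjusted p = 0.582). Bex3, the adaptor also known as NADE, which binds p75 and can trigger cell death with it, read 10.03 and 10.09 against 9.93 and 9.92, a difference of 0.13 ± 0.08 (adjusted p = 0.197). Both genes were bright in all 4 cultures and neither passed. Bex6, which lies on chromosome 16, read 4.32 and 3.98 against 4.39 and 4.32, a difference of -0.21 ± 0.12 (adjusted p = 0.180). Bex3 passed the p threshold, without reaching 2-fold, after quantile normalization (0.28, adjusted p = 0.0133) and cyclic loess (0.25, adjusted p = 0.0254), and Tceal9 after quantile normalization (0.21, adjusted p = 0.0367). Bex6 passed it without MEL culture A (-0.38, adjusted p = 0.0175). Tceal2 and Tceal4 had no feature of their own.

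Of 12 Armcx, Gprasp and related genes, 9 were measured, with 0 lower at 2-fold (background 4.93%) and 3 higher (7.38%). They were Armcx2, given above, Armcx1 and Armcx3. This list was chosen with earlier results of these data known, so its counts and adjusted p-values are descriptive and nothing is read from them. Armcx1, which helps mitochondria to move in axons, read 7.76 and 7.93 in MEL and 4.96 and 4.79, within the dim range, in ES-EP, a difference of 2.97 ± 0.10 (adjusted p = 8.58e-07). Armcx3, a mitochondrial outer membrane protein gene with 3 features, differed by 2.23, 2.18 and 2.37, all in the same direction, and the first of these passed with an adjusted p of 1.4e-06. Of those 3 features only 1 is numbered among X-linked features. Armcx6 was lower, by -0.55 ± 0.08 (adjusted p = 0.0013), and Armcx4 did not pass (0.26, adjusted p = 0.148), though it did under the 3 other scalings (adjusted p = 0.0164 to 0.0297) and without MEL culture B (0.0167). Bhlhb9 (-0.13), Arxes1 (0.05) and Arxes2 (-0.11) were dim and did not pass. Features shared by Gprasp1 with Armcx5 and with Gprasp2, the receptor sorting genes, differed by 0.93 (adjusted p = 0.000189) and 1.25 (adjusted p = 0.000125).

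Tcea1, Tcea2 and Tcea3 are the elongation factor genes that the TCEAL genes are named after, listed here with the related Tceanc and Tceanc2. These 5, called SII genes in the counts below, were all measured. Their list was also chosen with earlier results of these data known, so its counts and adjusted p-values are descriptive. At 2-fold 2 were higher (background 7.38% of all measured genes) and 1 lower (4.93%). Tcea2, a tissue-restricted SII gene, was higher by 1.17 ± 0.09 (adjusted p = 3.66e-05) and the X-linked Tceanc by 1.05 ± 0.09 (adjusted p = 6.56e-05), while Tceanc2 was lower by -1.48 ± 0.08 (adjusted p = 8.87e-06). Tceanc fell short of 2-fold after quantile normalization (0.92) and without ES-EP culture A (0.99). Tcea3 was lower without reaching 2-fold (-0.42, adjusted p = 0.0154), and did not pass without MEL culture B (adjusted p = 0.0748) or ES-EP culture A (0.104). Tcea1, the general SII gene, had features that disagreed. The brighter feature (10426301), which stands for the gene in the count, gave 0.03 (adjusted p = 0.808). The other (10344633) gave -1.12 (adjusted p = 0.000111), which met the call as lower but is not in the count. Tcea1 lies on chromosome 1, but the number of the brighter feature falls between Nefm of chromosome 14 (10421100) and Bex6 of chromosome 16 (10435009). These 2 are not its direct neighbours in the numbering. The other Tcea1 feature is numbered directly between Lypla1 and Atp6v1h. Where the probes of either feature lie was not tested.

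Of 23 genes of the neurotrophin and cell death partners of BEX proteins, 18 were measured. As this list too was chosen with earlier results of these data known, its counts and adjusted p-values are descriptive. At 2-fold 1 was higher (background 7.38%) and 2 lower (4.93%). Maged1, another p75-binding adaptor on the X chromosome, was higher by 1.41 ± 0.08 (adjusted p = 9.14e-06). Nefh, the heavy neurofilament gene, was lower by -2.19 ± 0.11 (adjusted p = 3.96e-06). Lmo2, the bridging cofactor of erythroid transcription complexes, read 10.26 and 10.32 in MEL and 11.55 and 11.51 in ES-EP, a difference of -1.24 ± 0.08 (adjusted p = 1.82e-05). Ngfr, which encodes p75, read 6.33 and 6.03 against 6.46 and 6.50, a difference of -0.30 ± 0.11 that did not pass (adjusted p = 0.0542). Under the alternatives the Ngfr adjusted p ran from 0.00946, without MEL culture A, to 0.177, without MEL culture B.

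The members are X-linked, so the X chromosome was examined as a whole. Of 739 X-linked genes, 96 (13.0%) were higher at 2-fold and 28 (3.79%) lower, against 7.19% and 4.97% of 19108 autosomal genes. The median difference was -0.02 on X and -0.14 on autosomes. Xist, the RNA that silences one X in female cells, read 3.86 and 3.71 in MEL and 4.31 and 4.22 in ES-EP, dim in all 4. The Y-linked Uty (9.48 and 9.81 against 8.67 and 8.78) and Eif2s3y (10.22 and 10.37 against 10.24 and 10.22) were bright in all 4, and Kdm5d was bright in MEL alone (7.16 and 7.51 against 3.84 and 3.92). Of their X-linked partners, Kdm5c (0.68) and Eif2s3x (0.50) passed without reaching 2-fold, and Kdm6a (0.13) did not pass. Ddx3x, whose Y-linked partner Ddx3y had no feature of its own, did not pass with its brighter feature (-0.23, adjusted p = 0.0509) and was lower with the other (-0.48, adjusted p = 0.00295).

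Markers of cell types were set beside these values. Over all measured genes 7.38% were higher in MEL at 2-fold and 4.93% lower, or 21.8% and 36.9% without the fold criterion. The 8 measured erythroid markers had means from 7.04 to 12.4 in MEL and from 10.6 to 13.2 in ES-EP. Of these 8, 3 were lower in MEL at 2-fold, Slc4a1 (-5.44), Alas2 (-1.33) and Epb42 (-1.20), and 0 higher. Without the fold criterion 6 were lower and 2 higher, and the median difference was -0.81. Of 5 measured megakaryocyte markers 3 were higher in MEL, Pf4 (4.38), Itga2b (2.22) and Gp5 (1.28). The others, Gp9 (-0.06) and Vwf (0.06), did not pass. The sum of the 5 log2 values was 37.8 and 37.8 in MEL and 29.4 and 30.4 in ES-EP. The part of the erythroid and megakaryocyte marker differences in that of Tceal8 was not tested. Of 15 neuronal markers 1 was higher in MEL (Syp) and 2 lower (Tubb3 and Ina). The sums of the 15 were 75.2 and 74.2 in MEL and 82.5 and 82.3 in ES-EP. At 2-fold 1 of 5 mast cell markers was lower (Ms4a2, -3.52) and 1 of 5 endothelial markers higher (Tek, 1.48). Of 8 macrophage and granulocyte, 6 stromal and 7 pluripotent stem cell markers, 0 were called in either direction. Values of 2 cultures of 1 group correlated over all features at 0.997 (MEL) and 0.998 (ES-EP), and values of 2 cultures of different groups at 0.948 to 0.949.

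Likeness over the 4 arrays was taken with each gene centred on its own mean and predicted genes without a descriptive name passed over. The genes whose values ran most like those of Tceal8 were Pls3 (Euclidean distance 0.199), Kcnma1 (0.241), Alox5 (0.475), Ccr2 (0.486) and Adssl1 (0.601). Pls3 is X-linked, and Kcnma1 has a second feature with a difference of -0.54, so its likeness holds for its brighter feature. Nearest to Bex1, the member with the lowest difference, were Zscan30 (0.0244), Arl14ep (0.0276), Arpp19 (0.0313), Mrpl16 (0.0368) and Tktl2 (0.0369). With 4 arrays in 2 groups, likeness mostly repeats the size of the group difference.

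The promoter windows were searched on both strands for words of known factors. Members are counted by gene, over all their windows, and the shares given beside them are per window. By gene, CACGTG was in 8.09% of all 27025 genes with a window, CACGTGA in 4.29% and TGACG in 23.0%. The E-box CACGTG was in 8 of 9 members, all but Bex2, and in 7.15% of all 32851 windows. The longer word CACGTGA was in the same 8 members and in 3.77% of windows, and TGACG in 9 of 9 and in 20.8%. CACGTGA and TGACG were chosen after the member windows had been seen, so nothing is read from their shares in members. Of the GATA words, AGATAA was in 1 of 9 members, Tceal5, a share near that of all windows (11.2%) and of all genes (12.7%). TGATAA was in 0 of 9 members (9.05% of all windows). The KLF word CACCC was in 7 members, not in Tceal1 or Tceal8 (57.5%), CANNTG, which includes the E-box, in 9 (72.3%), TATAAA in 1, Bex2 (13.6%), and CCAAT in 3, Tceal6, Tceal8 and Bex2 (37.4%). No word of 12 letters was in 5 or more members, the most that shared one being 2.

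A spaced pattern, TGACG followed by any 7 bases and then CACGTGA, was written down after the member windows had been read. It was in 12 windows (0.0365%), of 10 genes, of which 8 are X-linked and 6 are members: Tceal3, Tceal5, Tceal6, Tceal8, Bex1 and Bex4. The other 4 genes were Armcx1 and Armcx6, Ubap2 on chromosome 4 and Vps33a on chromosome 5. Counted from the annotated start, the pattern began at 5 in Tceal8, -9 in Tceal3, -15 in Bex1, -21 in Bex4, -26 in Tceal6 and -27 in Tceal5. For genes with several annotated starts these are the positions nearest to a start. The pattern also lies at -179 from another start of Tceal5 and at -245 from another of Tceal3, and 1 further Tceal3 window lacks it. In the lines printed above, Tceal1 has the words with a longer gap, and Tceal7 lacks TGACG at this place. Genes that hold the pattern differed in both directions between the groups: Tceal8 by 5.97, Armcx1 by 2.97, Bex4 by 0.97, Ubap2 by -0.22, Tceal6 by -0.32, Armcx6 by -0.55, Tceal5 by -0.71, Bex1 by -0.76 and Vps33a by -1.13. A match of letters is a description and names no bound factor.

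**Figure D4:**
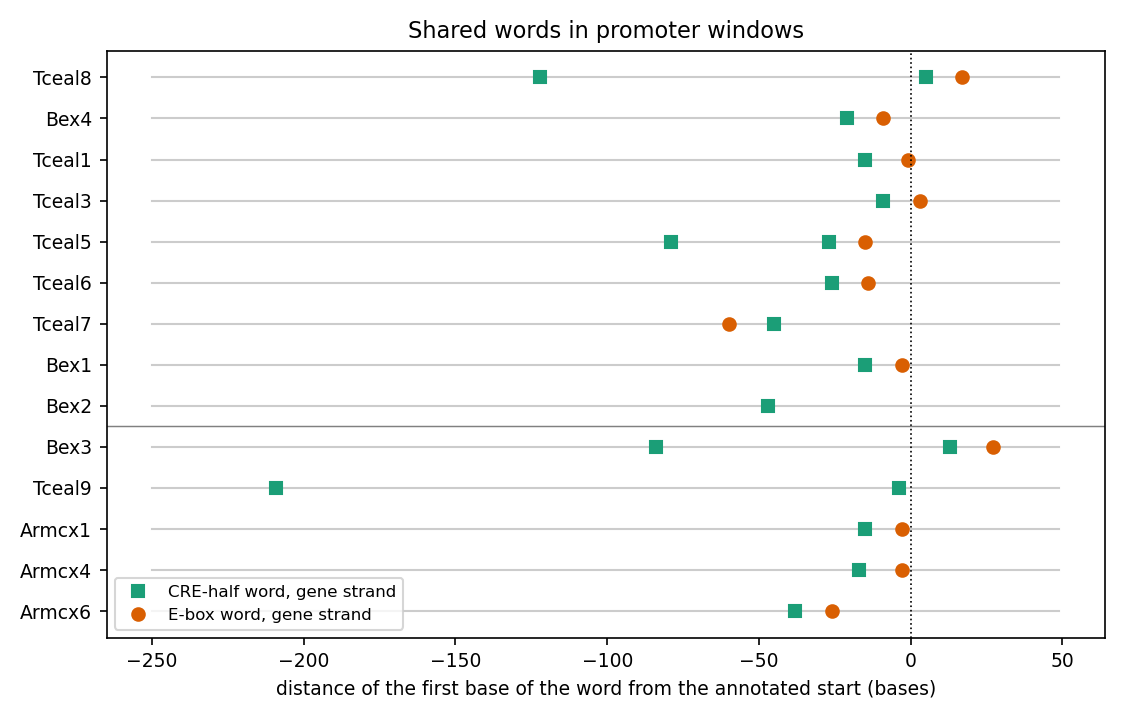
Distance in bases of the first base of each word from the annotated start (horizontal axis, start at 0, 1 start per gene). The 9 members are above the line and 5 related genes (Bex3, Tceal9, Armcx1, Armcx4 and Armcx6) below it. Squares mark TGACG and circles CACGTGA on the gene's strand. Armcx2, Armcx5, Gprasp1, Gprasp2, Bhlhb9, Arxes1 and Arxes2, whose windows lack CACGTGA, are not drawn. For Tceal3 the start drawn is the one with the pattern nearest to it. Of the members, 6 have a square and a circle with 7 bases between the words near the start, among them Tceal8, which was bright in MEL alone, and Bex1, which was dim in all 4 cultures.

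The scaling of the arrays moved the small differences. The median of all measured genes was -0.14 as deposited, -0.02 after quantile normalization, -0.07 after centring on array medians and 0.02 after cyclic loess. Tceal8 stayed between 5.90 and 6.15 and Bex4 between 0.94 and 1.12 under every setting tried. Bex4 passed 2-fold after quantile normalization (1.12), centring (1.04) and cyclic loess (1.08), and without MEL culture A or ES-EP culture A. Bex2 changed sign, with 0.03 after quantile normalization and 0.01 after cyclic loess. Tceal1, Tceal6, Tceal5 and Bex1 kept a negative difference, with ranges of -0.38 to -0.11, -0.46 to -0.11, -0.89 to -0.51 and -0.87 to -0.60.

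**Figure D5:**
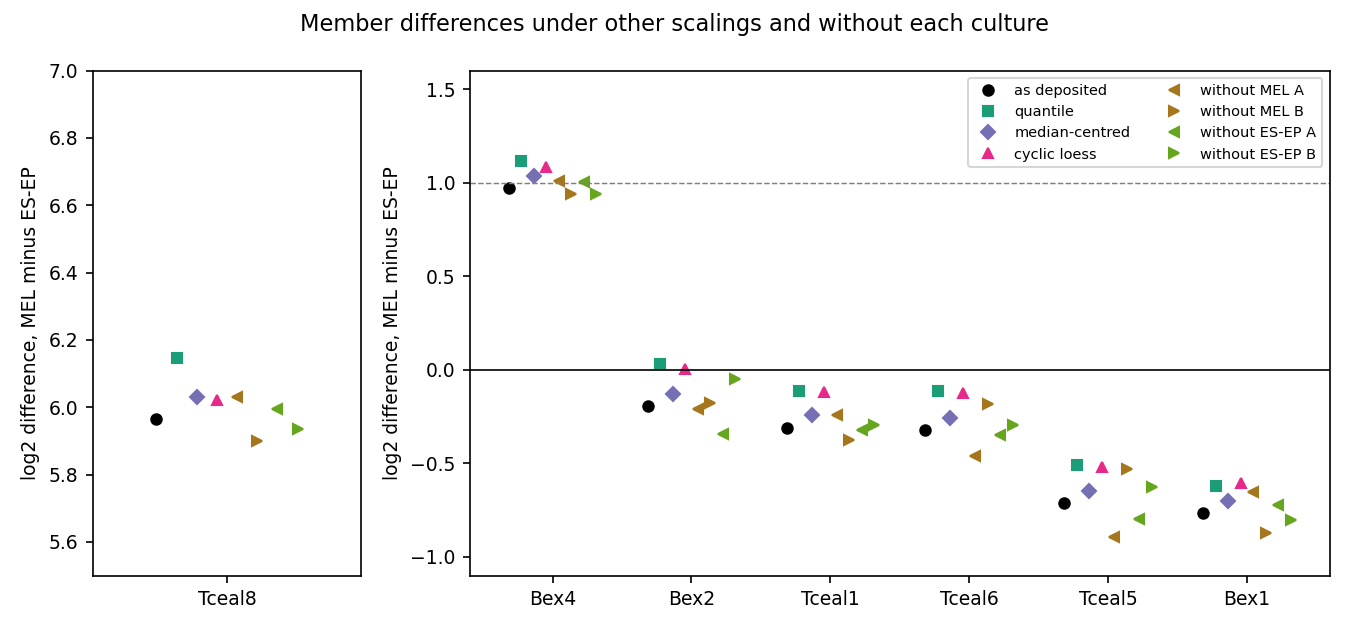
Log2 difference, MEL minus ES-EP, of each measured member as deposited, after 3 other scalings and without each culture, with Tceal8 on an axis of its own and a dashed line at 2-fold. Tceal8 keeps within 5.90 to 6.15, Bex4 straddles the line, Bex2 lies around 0, and the other 4 stay below 0.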

How the data were processed

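RNA from 4 cultures was hybridised to 1 array each. Per the labels, the deposited expression values were made by the authors with RMA in GeneSpring GX, where RMA corrects background, normalizes probes between arrays and summarises them per feature. The deposited values were taken as log2 from their range and scatter, since the labels do not name the scale. No source used here gives the software version or the array's genome build. Of 35557 features, 6613 control features were left out and 28944 tested. Of these, 21789 had 1 gene in the platform annotation, 1621 several and 5534 none, and 21698 of those with 1 gene matched RefSeq. A gene with several features was represented by the brightest. MEL and ES-EP were compared with limma 3.58.1 (R 4.3.3; lmFit and eBayes, 2-sided) with Benjamini-Hochberg adjustment over all tested features, and the fit was tested on simulated data. The SE of a difference and its p-value are moderated: eBayes draws the spread of each feature towards that of all features. The prior has 5.15 degrees of freedom against 2 from the feature's own cultures. With 2 cultures a group, the spread covered is only that between cultures of these 4 arrays, and their number limits the precision. Promoter windows were compared with Biopython 1.88. Protein sequences were not used here.

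Genes named are all measured members, the called genes of the X-linked stretch and the measured genes of the short lists, of which the neurotrophin list gives called genes with the 2 largest rises and falls, Ngfr and Lmo2. Likeness names the 5 nearest genes to the members with the highest and the lowest difference, predicted genes without a descriptive name passed over. Members and lists were chosen with earlier results of these data known. Other genes of the stretch that passed without the fold criterion, the olfactory receptor genes and the words CACGTGA and TGACG were chosen after values or sequences were seen. Alternatives were 3 other scalings, 2 other variance priors, 2 filters on dim features, other feature sets, the mean of a gene's features, other fold criteria, a replicate block and leaving out each culture.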

Additional observations from a re-analysis of the deposited data

How the results depend on the processing

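Of 28944 features 1816 were called higher and 1495 lower. Members called higher went from 1 to 2, through Bex4, after quantile normalization, centring, cyclic loess, with a 1.5-fold criterion, with none, and without MEL culture A or ES-EP culture A (1 to 2 when each culture was left out). Members called lower went from 0 to 2 at 1.5-fold and 4 with no fold criterion, the latter being 2 after each other scaling. At 1.5-fold and with none, features higher numbered 3193 and 5523, features lower 4272 and 10827, and neurotrophin partners higher 3 and 6 (from 1). Other genes of the X-linked stretch called lower were 1 at 1.5-fold and 3 with no fold criterion (from 0), and those higher were 4 with none and 1 with features under the median left out (from 2). With no fold criterion 1 Armcx gene was lower (from 0) and 2 SII genes (from 1). SII genes higher were 1 in place of 2 after quantile normalization and without ES-EP culture A (1 to 2 when each culture was left out), and 0 were lower with the mean of a gene's features, which turned Tcea1 to -0.55. Adding control features raised the features lower to 2631. The cause of these moves was not tested, apart from the fold criterion's own construction. In all, 211 of the counts stayed within 1.5 times and 25 moved. Counts of 0 that stayed 0 are among the 211, and the other variance priors leave the differences themselves unchanged. The tally is therefore not a measure of how firm the results are. Filters on dim features left out the 5 dim members, so these have no value there.

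With the culture letter as a replicate block, 1816 features were called higher and 1495 lower, and no count moved. The letters are not stated to pair the cultures, and the deviations of same-letter cultures correlated at 0.11.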
